A study of Mus musculus with 18 samples.

Results

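Transcripts of 9 feedback inhibitors of the ERK kinase pathway were followed in isolated mouse brain endothelial cells: the MAP kinase phosphatases Dusp1, Dusp2, Dusp4, Dusp5 and Dusp6, and the adaptor-type inhibitors Spry1, Spry2, Spry4 and Spred1. They were chosen by name, as the rows of the deposited count table whose Ensembl identifier carries one of these symbols. All 9 were found among 57010 genes, and all 9 were abundant enough to stay among the 17531 genes tested. The study compared mice that lose Pdcd10 in brain endothelium with littermates, in low and in normal oxygen. Pdcd10 (CCM3) is one of the genes mutated in familial cerebral cavernous malformation, a disease of leaky, enlarged brain vessels.

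Every mouse carried 2 floxed Pdcd10 alleles and Aldh1l1-EGFP/Rpl10a, an astrocyte reporter that tags ribosomes. The hypoxia KO group (5 libraries) had in addition Slco1c1-iCreERT2, a tamoxifen-dependent Cre driven by a brain endothelial promoter, and spent 7 days in 12% oxygen. The hypoxia flox group (4 libraries) lacked the driver and had the same 7 days in 12% oxygen. The normoxia KO group (5 libraries) and the normoxia flox group (4 libraries) had these same 2 genotypes and were kept in 21% oxygen. A dose of 50 μg of 4-hydroxytamoxifen was given into the stomach on postnatal day 1, and RNA was taken on postnatal day 57. The design text also mentions driver-positive mice without injection as controls and does not say whether any flox library came from one. The labels do not say whether a library is 1 mouse or a pool. Total counts were 17.9 to 31.2 M per library. The p-values below measure the spread between these libraries.

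ERK is the last kinase of a relay that runs from growth factor receptors through RAS, RAF and MEK. Signalling through it induces its own brakes. DUSP proteins remove the phosphates from MAP kinases, in the nucleus for Dusp1, Dusp2, Dusp4 and Dusp5 and in the cytoplasm for the ERK-selective Dusp6, while Sprouty and Spred proteins act upstream, between the receptor and RAF. In endothelium this relay carries signals of VEGF and FGF, and Sprouty proteins are known to restrain vessel sprouting.

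Several of these genes are also immediate early or delayed early genes, whose transcription follows a stimulus within minutes to hours. RefSeq promoter windows of 250 bases before to 50 bases after the transcription start (assembly GRCm38.p6, start counted as 1) were at hand for 7 of the 9 genes, Dusp4 and Spry4 being the others. Shown here are the windows of Dusp1 and Dusp5, whose link with the immediate early score described below had the smallest p-values of the 9, and of Spred1, whose link had the largest. They lie at chr17:26508423-26508722 on the minus strand (Dusp1), chr19:53528895-53529194 on the plus strand (Dusp5) and chr2:117120821-117121120 on the plus strand (Spred1), written 5′ to 3′ along the gene's own strand with matches to the motifs searched in capitals.
Dusp1: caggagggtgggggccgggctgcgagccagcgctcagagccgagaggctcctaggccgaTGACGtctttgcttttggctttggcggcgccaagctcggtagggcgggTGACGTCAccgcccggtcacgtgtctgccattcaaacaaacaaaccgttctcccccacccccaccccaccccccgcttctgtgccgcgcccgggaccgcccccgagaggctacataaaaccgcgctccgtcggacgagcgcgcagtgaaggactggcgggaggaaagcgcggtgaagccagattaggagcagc
Dusp5: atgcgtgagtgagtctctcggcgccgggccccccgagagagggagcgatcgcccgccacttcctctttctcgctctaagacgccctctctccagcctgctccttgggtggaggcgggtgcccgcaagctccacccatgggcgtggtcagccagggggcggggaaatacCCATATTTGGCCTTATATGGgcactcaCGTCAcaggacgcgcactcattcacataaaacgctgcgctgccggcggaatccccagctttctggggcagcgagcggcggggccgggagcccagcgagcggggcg
Spred1: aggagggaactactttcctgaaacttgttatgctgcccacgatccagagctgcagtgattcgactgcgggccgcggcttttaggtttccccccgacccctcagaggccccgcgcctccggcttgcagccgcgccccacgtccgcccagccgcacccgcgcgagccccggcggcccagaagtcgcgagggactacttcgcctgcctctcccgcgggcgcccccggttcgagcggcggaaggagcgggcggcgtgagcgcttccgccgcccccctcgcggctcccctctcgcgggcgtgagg
The motifs, searched on both strands, were the cAMP response element (TGACGTCA), its shorter form (TGACG, which the full element contains), the AP-1 element (TGANTCA), an ETS element (CCGGAA), the TATA box (TATAAA) and the CArG box, which binds serum response factor. The Dusp1 window held the full cAMP response element from position -143, found in 1.79% of 32851 promoter windows, and a separate shorter form from position -191. The Dusp5 window held a pair of adjoining CArG boxes, CCATATTTGG from position -82 and CCTTATATGG from position -72, against 1.63% of windows with any CArG box, and a shorter cAMP element from position -55. The Spred1 window held none of the letters searched, as did those of Dusp6 and Spry1. The Dusp2 window had a shorter cAMP element from position 6, a form found in 20.8% of windows, and the Spry2 window an ETS element from position 34, found in 14.9%. These matches describe letters only.

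The libraries and their labels were checked first. Pdcd10 was at 18.3 to 25.4 CPM (counts divided by the TMM-scaled library total) in hypoxia KO against 37.5 to 60.5 CPM in hypoxia flox, a log2 difference of -1.17 ± 0.14 (SE; adjusted p = 2.87e-05). In normoxia the log2 difference was -1.08 ± 0.14 (adjusted p = 5.02e-05), and Pdcd10 transcripts remained in every KO library. The counts are per gene and do not separate the floxed exons from the rest. Summed endothelial markers stood at 14086 to 20985 CPM in all libraries. Of 8 such markers, 1 was higher and 2 lower in KO in normoxia, and 1 was higher and 0 lower in hypoxia. Pecam1 was at 1725 to 2016 CPM in hypoxia KO against 1371 to 1432 CPM in hypoxia flox. In normoxia it was at 1597 to 1818 CPM in KO against 1035 to 1477 CPM in flox. Summed neuron markers reached 1068 CPM in normoxia KO 4 and 2023 CPM in normoxia flox 4 and were at most 32.1 CPM elsewhere. Summed pericyte markers ran from 1091 to 1949.7 CPM in hypoxia KO against 155 to 882 CPM in hypoxia flox, with 5 of 6 markers passing as higher, and from 624 to 1232 CPM in normoxia KO against 288 to 1072 CPM in normoxia flox, with 3 of 6 higher. Summed smooth muscle markers were lower in KO at both oxygen levels (4 of 5 markers each), at 113 to 241 CPM in hypoxia KO against 296 to 566 CPM in hypoxia flox. Summed T cell and lymphocyte markers were at 4.88 to 17.4 CPM in hypoxia KO against 1.51 to 6.09 CPM in hypoxia flox, with 5 of 5 markers passing as higher, and at 4.12 to 11.1 CPM in normoxia KO against 0.948 to 3.25 CPM in normoxia flox, with 3 of 5 higher. By Y-linked genes against Xist (mean log2 CPM minus that of Xist), all 4 hypoxia flox libraries read as male and 4 of the 5 hypoxia KO libraries as female. Hypoxia flox 2 to 5 were at 4.67, 6.08, 7.51 and 8.26, and hypoxia KO 1 to 5 at -11.5, -12.9, -13.1, 7.44 and -13.0. Hypoxia flox 2 and 3 had the lowest values of the libraries that read as male. In normoxia, flox 1 (7.25) and KO 1 and 2 (7.17 and 7.12) read as male. Normoxia flox 2 (-13.3) and KO 5 and 6 (-13.1 each) read as female. Normoxia flox 3 and 4 (-4.26 and -3.11) and KO 4 (-6.15) lay between. Whether these, or hypoxia flox 2 and 3, hold RNA of both sexes was not tested.

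Transcript levels differed widely between the 9 genes. By RPKM, which divides by gene length, Dusp1 had the highest median over the 18 libraries, at 370.1 RPKM (range 40.4 to 732), and Dusp6 came next at 75.6 RPKM (20.5 to 173). The lowest Dusp6 value lay above the highest value of Spry1, next in the order at 13.3 RPKM (6.90 to 19.4). Below it came Dusp5 (10.5 RPKM), Spred1 (7.40), Dusp2 (6.10), Spry4 (5.65), Spry2 (4.80) and Dusp4 (3.35). From Spry1 down, the ranges of all neighbours in this order overlapped, and so did those of Dusp1 and Dusp6.

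The genes also differed in how much they varied inside a group. Between the lowest and the highest of the 18 libraries, CPM differed 117-fold for Dusp2, 69.2-fold for Dusp5 and 49.1-fold for Dusp4, against 20.3-fold for Dusp1, 9.90-fold for Dusp6 and 8.18-fold for Spry4. For Spry2, Spry1 and Spred1 it was 3.83-fold, 3.03-fold and 1.68-fold. The low ends of the first 3 rest on few reads, with 17 counts for Dusp2, 31 for Dusp5 and 11 for Dusp4. The pooled SD inside the groups (log2 CPM) was 2.06 for Dusp5, 1.96 for Dusp2, 1.74 for Dusp4, 1.42 for Dusp1, 0.87 for Dusp6, 0.86 for Spry4, 0.52 for Spry2, 0.45 for Spry1 and 0.21 for Spred1. The median of all genes tested was 0.30, so Spred1 alone varied less than the typical gene.

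**Figure D1:**
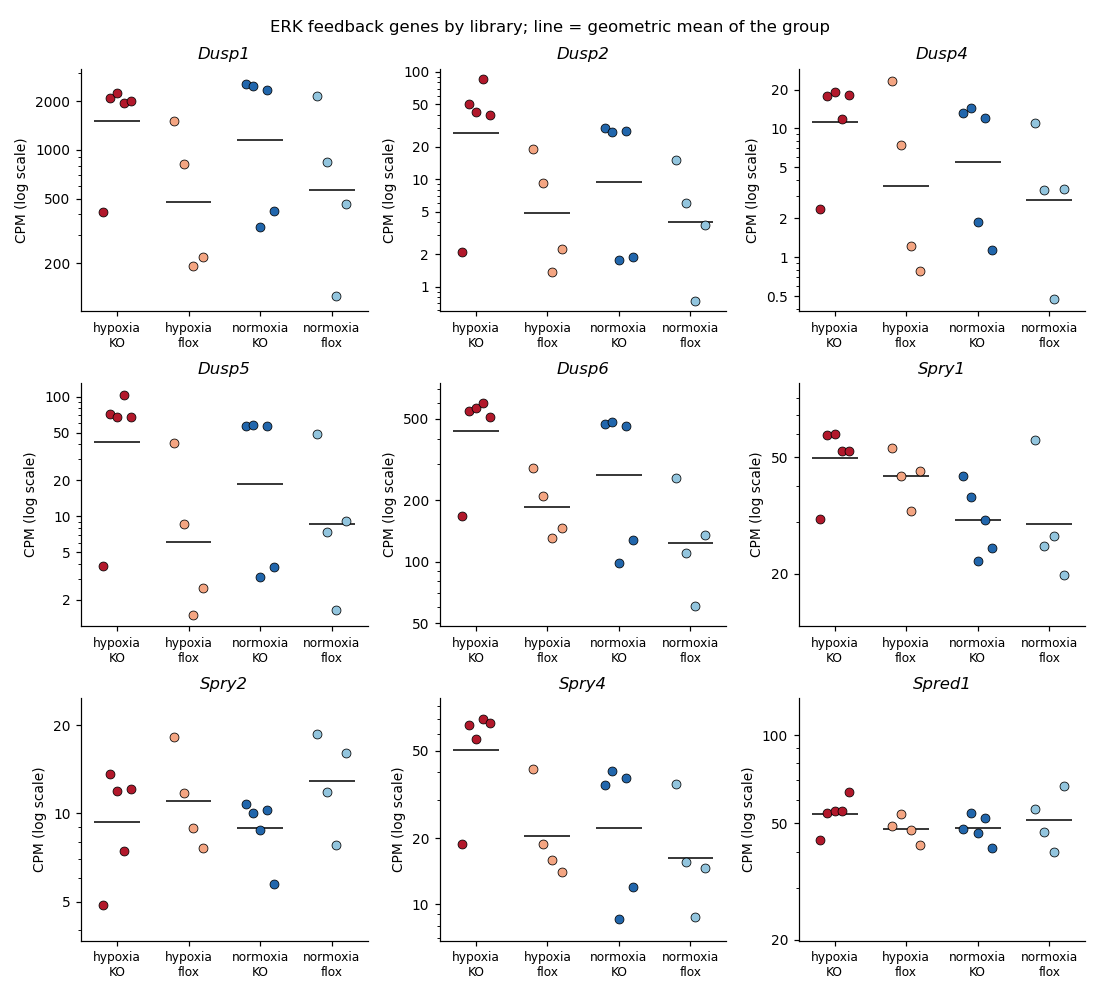
CPM (log axis) of each of the 9 genes in each of the 18 libraries, by group, with 1 point per library and the group's geometric mean as a line. Within hypoxia KO, library 1 lies below the other 4 for Dusp1, Dusp2, Dusp4, Dusp5, Dusp6, Spry1 and Spry4, and no gene separates KO from flox without overlap at either oxygen level.

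The nuclear phosphatases fell into libraries with high and with low levels inside every group. Dusp1, which acts on p38 and JNK as well as ERK, had 416, 2094, 2261, 1953 and 1994 CPM in hypoxia KO 1 to 5, against 1508, 824, 191 and 219 CPM in hypoxia flox 2 to 5. It had 2544, 2482, 335, 2330.2 and 418 CPM in normoxia KO 1, 2, 4, 5 and 6, against 2155, 837, 126 and 463 CPM in normoxia flox 1 to 4. Hypoxia KO 1 and normoxia KO 4 and 6 were the low KO libraries, hypoxia flox 2 and normoxia flox 1 were the high flox libraries, and the groups overlapped.

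Dusp5, a nuclear phosphatase selective for ERK, showed the same libraries as high and low. Its levels were 3.86, 71.8, 67.7, 104 and 67.4 CPM in hypoxia KO, against 41.3, 8.63, 1.51 and 2.53 CPM in hypoxia flox. In normoxia KO they were 56.8, 58.7, 3.11, 56.96 and 3.76 CPM, against 48.6, 7.39, 1.64 and 9.16 CPM in normoxia flox. No library lay between 9.16 and 41.3 CPM, and both KO groups and both flox groups had members on each side of that gap.

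Dusp2, a nuclear phosphatase best known from activated immune cells, had 2.09, 49.9, 42.1, 86.0 and 39.8 CPM in hypoxia KO, against 19.0, 9.22, 1.36 and 2.24 CPM in hypoxia flox. It had 29.9, 27.4, 1.76, 28.1 and 1.90 CPM in normoxia KO, against 15.1, 6.02, 0.733 and 3.76 CPM in normoxia flox. Its highest level was in hypoxia KO 4, the library in which T cell and lymphocyte markers also summed highest, at 17.4 CPM. Those markers were also higher in KO, as given above, and Cd3e, a T cell receptor subunit, was at 0 to 1.70 CPM in hypoxia KO against 0.0454 to 0.167 CPM in hypoxia flox. Their part in the Dusp2 levels was not tested.

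Dusp4, which is induced by ERK and acts on it in the nucleus, had 2.36, 17.9, 19.1, 11.9 and 17.995 CPM in hypoxia KO, against 23.3, 7.45, 1.21 and 0.779 CPM in hypoxia flox. It had 13.2, 14.5, 1.88, 12.1 and 1.14 CPM in normoxia KO, against 10.9, 3.34, 0.474 and 3.39 CPM in normoxia flox. Its highest value of all was in a flox library, hypoxia flox 2.

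Dusp6, the cytoplasmic ERK phosphatase, spanned a narrower range. It stood at 168, 547, 562, 598 and 508 CPM in hypoxia KO, against 289, 209, 130.5 and 147 CPM in hypoxia flox. In normoxia KO it stood at 471, 484, 98.1, 462 and 128 CPM, against 257, 111, 60.4 and 134 CPM in normoxia flox. Of the 5 hypoxia KO libraries only library 1 lay within the hypoxia flox range, and in normoxia KO libraries 4 and 6 lay within the normoxia flox range.

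Among the Sprouty genes, Spry4 followed a pattern like that of Dusp6. Spry4 binds RAF and blocks the route from receptors to RAS and RAF. It had 18.9, 66.0, 56.7, 69.9 and 66.7 CPM in hypoxia KO, against 41.3, 18.9, 15.9 and 14.1 CPM in hypoxia flox. It had 35.1, 40.6, 8.54, 37.7 and 12.0 CPM in normoxia KO, against 35.5, 15.5, 8.79 and 14.6 CPM in normoxia flox. The 4 high hypoxia KO libraries lay above every normoxia KO library.

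Spry1 and Spry2, inhibitors that work near the receptor, varied less. Spry1 had 30.7, 59.5, 60.0, 52.6 and 52.8 CPM in hypoxia KO, against 54.0, 43.1, 32.9 and 44.9 CPM in hypoxia flox. Its normoxia levels were 43.4, 36.8, 22.2, 30.6 and 24.5 CPM in KO, against 57.2, 24.9, 26.9 and 19.8 CPM in flox. Spry2 had 4.88, 13.7, 11.9, 7.45 and 12.1 CPM in hypoxia KO, against 18.2, 11.8, 8.94 and 7.64 CPM in hypoxia flox. Its normoxia levels were 10.8, 10.03, 8.79, 10.3 and 5.75 CPM in KO, against 18.7, 11.8, 7.80 and 16.1 CPM in flox, so that 3 of the 4 normoxia flox libraries lay above all 5 normoxia KO libraries.

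Spred1, which brings neurofibromin to the membrane to switch RAS off, was the most even. Its levels were 43.6 to 63.7 CPM in hypoxia KO (median 54.9) against 42.1 to 53.5 CPM in hypoxia flox (median 48.0), and 41.2 to 54.3 CPM in normoxia KO (median 47.7) against 39.8 to 66.8 CPM in normoxia flox (median 51.3). In bulk RNA, fewer cells of a type and less RNA per cell cannot be told apart for any of these genes.

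Between KO and flox in hypoxia, 8 of the 9 genes had positive log2 differences, and the call depended on the tool for Dusp6 and Spry4. In edgeR's quasi-likelihood test with Benjamini-Hochberg adjustment over all genes, 0 of the 9 passed at 0.05, where 22.3% of all genes passed, and 3 had an unadjusted p under 0.05. The median log2 difference of the 9 was 1.28, against -0.00207 for all genes tested. Spry4 averaged 55.6 ± 21.1 CPM in hypoxia KO and 22.5 ± 12.6 CPM in hypoxia flox (SD, n = 5 and 4), a log2 difference of 1.29 ± 0.54 (SE; adjusted p = 0.0992). Dusp6 averaged 477 ± 176 CPM in hypoxia KO and 194 ± 71.8 CPM in hypoxia flox, a log2 difference of 1.28 ± 0.53 (adjusted p = 0.0974). Dusp2 differed by 2.45 ± 1.09 (adjusted p = 0.124), Dusp5 by 2.21 ± 1.20 (adjusted p = 0.211) and Dusp1 by 1.34 ± 0.85 (adjusted p = 0.293). The 95% interval of the Dusp5 difference ran from -0.34 to 4.75, and that of Spred1 from -0.12 to 0.46 around 0.17. Spry2 was the only one of the 9 with a negative value, -0.23 ± 0.32 (adjusted p = 0.658).

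This comparison turned on a few choices. DESeq2 put 2 of the 9 past the threshold, Dusp6 (1.29, adjusted p = 0.0406) and Spry4 (1.29, adjusted p = 0.0450), where it passed 22.5% of all genes, while limma on RPKM put 0 past it. Without hypoxia KO 1, edgeR passed Dusp6 (1.4996 ± 0.51, adjusted p = 0.0448) and Spry4 (1.51 ± 0.52, adjusted p = 0.0445), where 25.7% of all genes passed. Without hypoxia flox 2 it passed Spry4 alone of the 9 (1.75 ± 0.58, adjusted p = 0.0433), where 22.0% of all genes passed. Since the sexes were unevenly spread here, the sex signal was also used as a covariate: Dusp6 then differed by 1.83 ± 0.61 (adjusted p = 0.0506) and Spry4 by 1.77 ± 0.62 (adjusted p = 0.0605).

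In normoxia, 0 of the 9 passed between KO and flox by edgeR, where 16.6% of all genes passed, and DESeq2 and limma also gave 0. Dusp6 had the only unadjusted p under 0.05: it averaged 329 ± 197 CPM in normoxia KO and 141 ± 83.5 CPM in normoxia flox (SD, n = 5 and 4), a log2 difference of 1.24 ± 0.53 (adjusted p = 0.132). Spry2 averaged 9.13 ± 2.02 CPM in normoxia KO and 13.6 ± 4.80 CPM in normoxia flox, a log2 difference of -0.56 ± 0.32 (adjusted p = 0.267). The median of the 9 was 0.87, against -0.02 for all genes. Spry1 and Spred1 differed by -0.02 (95% interval -0.62 to 0.58) and -0.10 (-0.39 to 0.18). Both genotype comparisons had overlapping groups for each of the 9 genes, where 22.5% of all genes had groups free of overlap in hypoxia and 14.4% in normoxia.

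**Figure D2:**
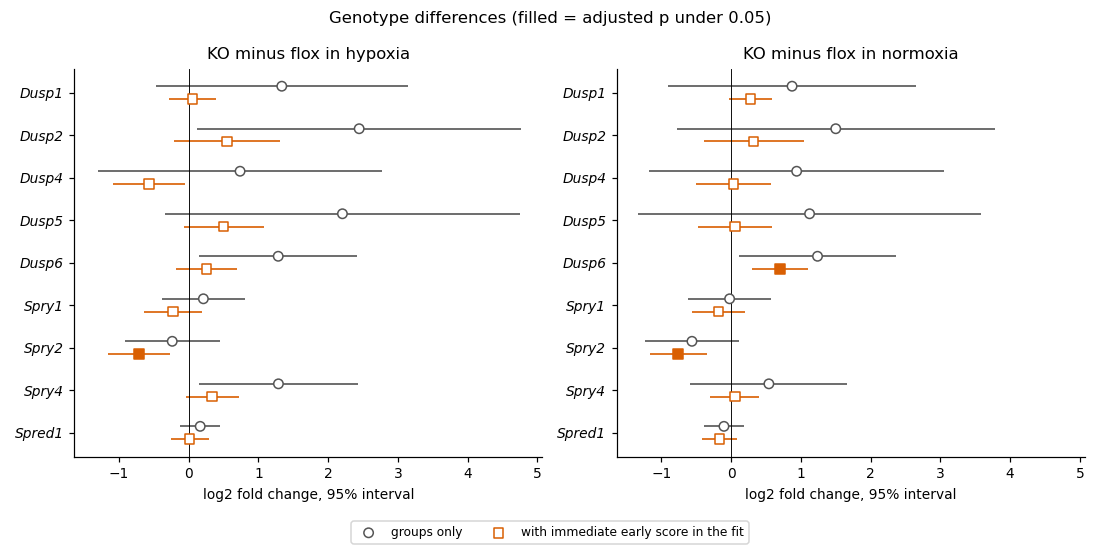
Log2 difference of KO minus flox with its 95% interval for the 9 genes in hypoxia and in normoxia, from the model of the 4 groups alone and from the model that also holds the immediate early score (a library-level covariate, the mean log2 CPM of 13 immediate early genes). Filled marks have an adjusted p under 0.05: with the score these are Dusp6 in normoxia and Spry2 at both oxygen levels, and without it there are none.

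From the groups alone, oxygen set none of the 9 genes past the threshold in either genotype. Between hypoxia and normoxia in KO mice, 0 of the 9 passed by edgeR, DESeq2 or limma, where 1.48% of all genes passed by edgeR. All 9 had positive values, with a median log2 difference of 0.70 against -0.03 for all genes. Spry1 averaged 51.1 ± 11.9 CPM in hypoxia KO and 31.5 ± 8.73 CPM in normoxia KO (SD, n = 5 each), a log2 difference of 0.70 ± 0.27 (adjusted p = 0.251), and had the only unadjusted p under 0.05. Spry4 averaged 55.6 ± 21.1 CPM in hypoxia KO and 26.8 ± 15.3 CPM in normoxia KO, a log2 difference of 1.05 ± 0.49 (adjusted p = 0.352). The groups overlapped for each of the 9, where 3.73% of all genes had none.

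Between hypoxia and normoxia in flox mice, 0 of the 9 passed by the same 3 tools, where 2.81% of all genes passed by edgeR, and 0 had an unadjusted p under 0.05. The median was 0.30, against -0.03 for all genes, and 5 of the 9 values were positive. Dusp4 had the largest value, 0.90 ± 1.04 (adjusted p = 0.756). The groups overlapped here too, where 8.82% of all genes had none. The interaction, which tests whether the genotype difference changes with oxygen, passed for 0 of the 9 by the 3 tools, with 0 at an unadjusted p under 0.05, where edgeR passed 0.445% of all genes. Its 95% interval for Spry4 ran from -0.83 to 2.32, so that both signs lie within it.

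The spread inside the groups was shared with immediate early genes, which respond to growth factors, stress and tissue handling. A score was taken per library as the mean log2 CPM of 13 of them (Fos, Fosb, Jun, Junb, Egr1, Egr2, Egr3, Ier2, Nr4a1, Atf3, Btg2, Arc and Zfp36), none of the 9. Fos, which pairs with Jun in the AP-1 factor, stood at 473, 4688, 5033, 4663 and 4305 CPM in hypoxia KO, against 3074, 1006, 245 and 219.6 CPM in hypoxia flox. In normoxia it stood at 5546, 5725, 549, 5423 and 785 CPM in KO, against 4809, 1331, 290.4 and 755 CPM in flox. The libraries high in Fos were those high in Dusp1 and Dusp5. The score averaged 9.50 ± 1.41 in hypoxia KO and 7.70 ± 1.70 in hypoxia flox (SD, n = 5 and 4), a difference of 1.80 (exact two-sided permutation p = 0.119, or 0.476 adjusted over the 4 group comparisons of the score). It averaged 9.10 ± 1.61 in normoxia KO and 8.29 ± 1.58 in normoxia flox, a difference of 0.82 (exact permutation p = 0.452; adjusted 0.724), and the smallest p these sizes allow is 0.00794. Without hypoxia KO 1 the hypoxia difference was 2.43 (unadjusted exact permutation p = 0.0286, the smallest these sizes allow). What set this score in each library was not tested.

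All 9 genes rose with the score inside the groups, by the edgeR test of its slope in a model of the 4 groups and the score (Benjamini-Hochberg over all genes). Of all genes tested, 31.0% had a slope past the threshold in either direction and 14.7% an upward one, and the median slope was -0.02 against 0.53 for the 9. Slopes are given as the log2 change per unit of score. Dusp5 had the steepest, 1.31 ± 0.07 (SE; adjusted p = 2.42e-09), steeper than 99.96% of genes tested. Dusp2 (1.21 ± 0.09) and Dusp4 (1.08 ± 0.06) followed, then Dusp1 (0.88 ± 0.04). Spry4 (0.53 ± 0.04) and Dusp6 (0.52 ± 0.05) changed less per unit, and Spry2 (0.27 ± 0.05) and Spry1 (0.23 ± 0.04) less again. Adjusted p-values of these 7 ran from 3.82e-10 to 0.00158. Spred1 had a slope of 0.08 ± 0.03 (adjusted p = 0.0488) and did not keep the threshold in 19 of 27 other settings, while the other 8 slopes kept it in all 27. Among those settings, Spred1 passed when normoxia flox 2 or 4, normoxia KO 4 or hypoxia flox 2 was left out and not when any 1 of the other 14 libraries was, with adjusted p-values of 0.00292 to 0.152. Fos itself, part of the score, had a slope of 1.05 ± 0.02. The promoter windows printed above are thus those of 2 genes with steep slopes and of the gene with the flattest.

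**Figure D3:**
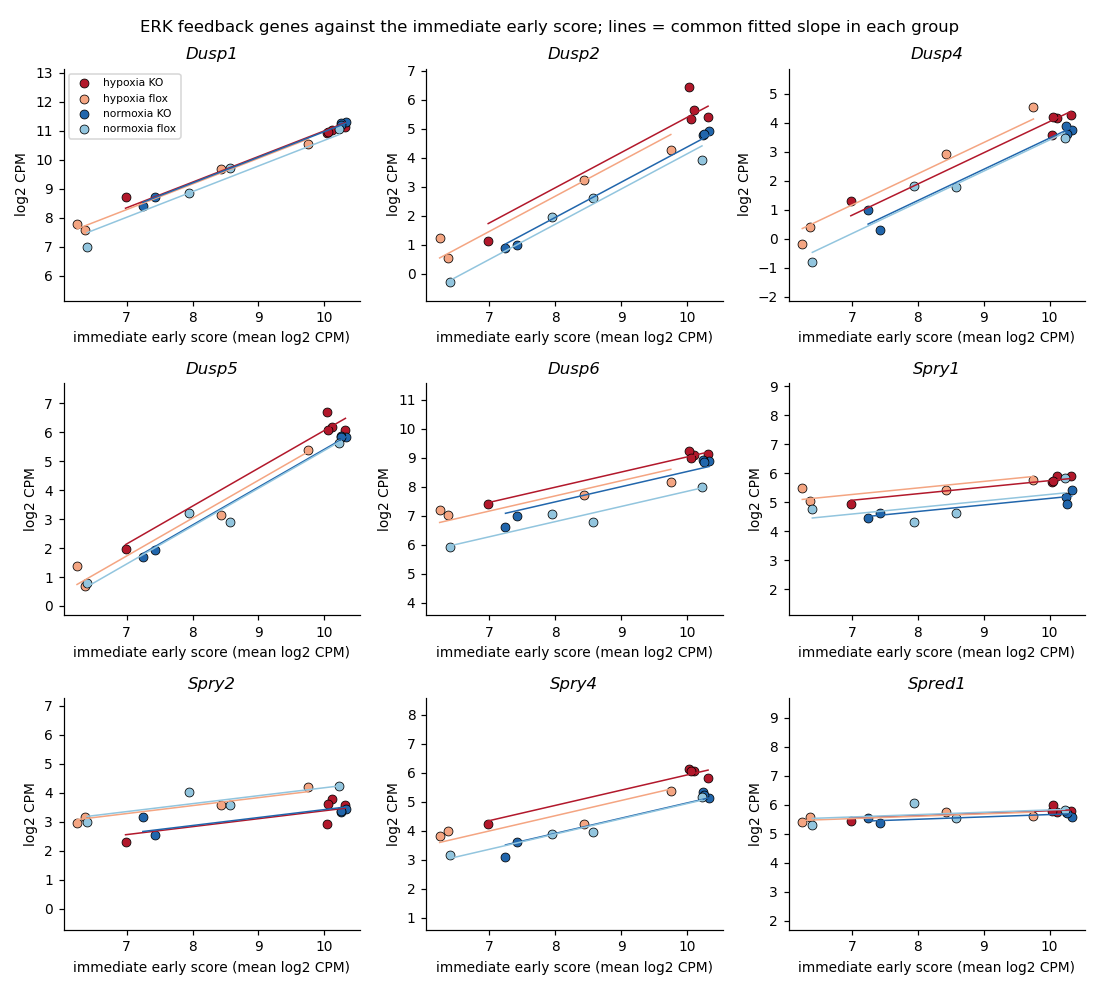
Log2 CPM of each of the 9 genes against the immediate early score (mean log2 CPM of 13 genes) in the 18 libraries, coloured by group, with lines of the fitted slope that the groups share. Dusp5, Dusp2 and Dusp4 climb steeply, with 1.31, 1.21 and 1.08 log2 units per unit of score, and Spred1 is nearly flat at 0.08.

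With the score in the model, a different set of differences came out, at the level the libraries would have at an equal score. This is another question than that of the groups alone. In normoxia, 2 of the 9 passed between KO and flox, where 21.9% of all genes passed. Dusp6 was higher in KO by 0.70 ± 0.19 (SE, log2; adjusted p = 0.0138) and Spry2 lower by 0.76, at -0.76 ± 0.19 (adjusted p = 0.0100). Spry2 kept the threshold when each of the 18 libraries was left out in turn, and Dusp6 when any but normoxia flox 2 was left out (0.58 ± 0.20, adjusted p = 0.0591). With the normoxia libraries 1, 2 and 4 taken as pairs by replicate number, Spry2 passed (-0.75, adjusted p = 0.0190) and Dusp6 did not (0.46 ± 0.14, adjusted p = 0.0793). No label states this pairing. That fit holds almost as many terms (groups, pairs and score) as libraries. Its p-values rest mostly on spread shared with other genes, so it is a weak check of either gene. In hypoxia, 1 of the 9 passed, Spry2 at -0.71 ± 0.21 (adjusted p = 0.0252), where 21.7% of all genes passed. It did not pass without hypoxia flox 2 (-0.61, adjusted p = 0.128) or without hypoxia KO 1 (-0.60, adjusted p = 0.0860). Dusp6 in hypoxia was at 0.25 ± 0.20 (adjusted p = 0.419) with the score, against 1.28 without it, and Spry4 at 0.34 ± 0.18 (adjusted p = 0.196).

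Across oxygen levels at an equal score, several of the 9 were higher in hypoxia. In flox mice 3 passed, where 5.49% of all genes passed: Dusp4 (1.13 ± 0.26, adjusted p = 0.0176), Dusp6 (0.92 ± 0.19, adjusted p = 0.00943) and Spry4 (0.67 ± 0.17, adjusted p = 0.0349). Dusp6 kept the threshold without any 1 of the 18 libraries. Dusp4 lost it without normoxia flox 1 (adjusted p = 0.0801), hypoxia flox 2 (0.125) or hypoxia flox 3 (0.0509). Spry4 lost it without normoxia flox 1, 2 or 4 or hypoxia flox 2, 4 or 5 (adjusted p = 0.0583 to 0.105). In KO mice 2 passed, where 3.14% of all genes passed. Spry4 was higher in hypoxia KO by 0.95 ± 0.15 (adjusted p = 0.00361) and kept the threshold without any 1 library. Dusp2 was higher by 1.15 ± 0.27 (adjusted p = 0.0331) and lost it without any 1 of the 5 normoxia KO libraries or hypoxia KO 2 (adjusted p = 0.0574 to 0.0789). Adding the sex signal to the score left Dusp6 at 0.74 ± 0.20 (adjusted p = 0.0563) and Spry4 at 0.54 ± 0.18 (adjusted p = 0.127) in flox mice, while Spry4 in KO mice was at 1.01 ± 0.15 (adjusted p = 0.00294). The interaction passed for 0 of the 9 with the score, with 0 at an unadjusted p under 0.05, where 0.553% of all genes passed.

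**Figure D4:**
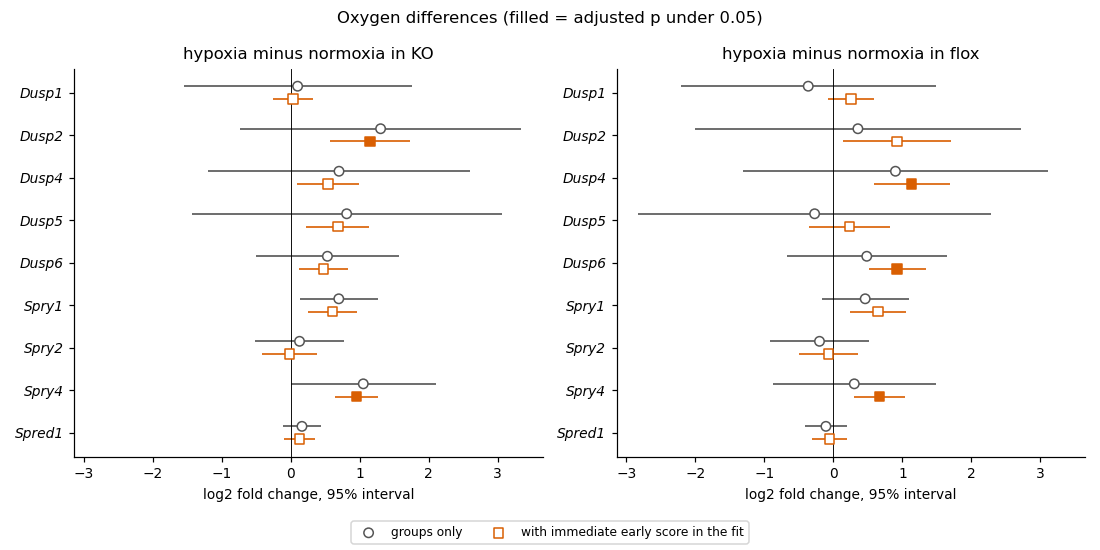
Log2 difference of hypoxia minus normoxia with its 95% interval for the 9 genes in KO and in flox mice, from the model of the 4 groups alone and from the model with the immediate early score. Filled marks have an adjusted p under 0.05: with the score these are Spry4 in both genotypes, Dusp2 in KO mice and Dusp4 and Dusp6 in flox mice.

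Related genes of the pathway were read from lists by role. Of 4 further MAP kinase phosphatases tested, 0 passed between KO and flox at either oxygen level by edgeR, DESeq2 or limma. By edgeR 22.3% of all genes passed in hypoxia and 16.6% in normoxia, so 0 among 4 says little. In edgeR 1 had an unadjusted p under 0.05 in hypoxia and 0 in normoxia. Their slopes on the score were all upward and past the threshold, where 14.7% of all genes had such a slope. The steepest was that of Dusp10 (0.73 ± 0.04), which acts on p38 and JNK, then Dusp8 (0.31 ± 0.03), Dusp16 (0.18 ± 0.05) and Dusp7 (0.13 ± 0.03). Of 6 other feedback genes, Spred2 passed as higher in KO at both oxygen levels, by 0.57 ± 0.12 in hypoxia (adjusted p = 0.00402) and 0.46 ± 0.12 in normoxia (adjusted p = 0.0180). This 1 call among 6 is no larger a share than the 22.3% of all genes in hypoxia, and is about the 16.6% in normoxia. Spred2 is the close relative of Spred1, which did not pass in either. Errfi1, an inhibitor of EGF receptors, had the steepest slope of this list, 0.59 ± 0.04.

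Among 17 genes of the core ERK cascade, 4 were higher and 1 lower in KO in hypoxia by edgeR, where 22.3% of all genes passed, and 3 were higher and 1 lower in normoxia, where 16.6% did. The balance depended on the tool, since limma on RPKM gave 3 higher and 4 lower in hypoxia and 1 higher and 1 lower in normoxia. Map2k1, which encodes MEK1, was higher by 0.62 ± 0.16 in hypoxia (adjusted p = 0.0100), and Araf, a RAF kinase, lower by 0.40 in normoxia, at -0.40 ± 0.11 (adjusted p = 0.0173). The median over the list was 0.05 in hypoxia and -0.01 in normoxia, close to that of all genes. On the score 8 of the 17 had a slope past the threshold, 4 up and 4 down, where 31.0% of all genes did, and the steepest was that of Sos1 (0.19 ± 0.03).

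The branch through MEKK3 and ERK5, which is known to be released when the CCM complex is lost, had 2 of 8 genes higher in KO in hypoxia, a share near the 22.3% of all genes that passed: its endothelial target Klf2 (1.41 ± 0.35, adjusted p = 0.00947) and Mef2d (0.41 ± 0.08, adjusted p = 0.00141). In normoxia 0 of the 8 passed by edgeR, DESeq2 or limma, where 16.6% of all genes passed by edgeR, and 1 had an unadjusted p under 0.05. Klf4 and Klf2 also rose with the score, by 0.62 ± 0.05 and 0.33 ± 0.04 per unit.

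Of 10 genes used as readouts of ERK activity, 4 were higher in KO in hypoxia and 2 in normoxia by edgeR, where 22.3% and 16.6% of all genes passed, with list medians of 0.97 and 0.81. DESeq2 gave 5 in hypoxia and 4 in normoxia, and limma on RPKM gave 2 in hypoxia and 1 in normoxia. Ccnd1, which encodes cyclin D1, was higher in KO by 1.67 ± 0.18 in hypoxia (adjusted p = 1.32e-05) and 1.54 ± 0.18 in normoxia (adjusted p = 2.01e-05). It was also higher in hypoxia than in normoxia, by 0.86 ± 0.17 in KO mice (adjusted p = 0.0164) and 0.74 ± 0.19 in flox mice (adjusted p = 0.0412). Etv4 (1.38 ± 0.44, adjusted p = 0.0331) and Fosl1 (2.85 ± 0.93, adjusted p = 0.0387) passed in hypoxia, both at low levels. Etv4 was at 1.37 to 2.40 CPM in hypoxia KO against 0.535 to 1.08 CPM in hypoxia flox. Fosl1 was at 0.804 to 12.0 CPM against 0.194 to 2.13 CPM. On the score, 7 of the 10 had upward slopes past the threshold, where 14.7% of all genes did. The steepest was that of Fosl1 (1.06 ± 0.10), with Ier3 at 0.77 ± 0.05, Phlda1 at 0.63 ± 0.05 and Epha2 at 0.51 ± 0.02.

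Receptor tyrosine kinases lie at the top of the pathway, and their calls were no more frequent than those of all genes (22.3% in hypoxia and 16.6% in normoxia). Of 15, 3 were higher in KO in hypoxia: Pdgfrb (1.41 ± 0.38, adjusted p = 0.0150), which is also a pericyte marker, Flt4 (0.47 ± 0.13, adjusted p = 0.0194) and Erbb2 (0.29 ± 0.10, adjusted p = 0.0431). In normoxia 2 were lower, Flt1 (-0.62 ± 0.13, adjusted p = 0.00414), a VEGF receptor that is also counted among the endothelial markers, and Igf1r (-0.59 ± 0.18, adjusted p = 0.0283). Of 7 JNK and p38 kinases, 1 was higher in KO in hypoxia and 2 in normoxia, set against the same shares of all genes. Mapk11, which encodes p38β, was higher in KO by 0.96 ± 0.13 in both hypoxia (adjusted p = 0.000108) and normoxia (adjusted p = 9.44e-05). Mapk13 was higher in KO in normoxia (2.79 ± 0.55, adjusted p = 0.00117) at very low levels, 0.403 to 0.981 CPM in normoxia KO against 0 to 0.172 CPM in normoxia flox, so that this fold rests on few reads and on the prior count.

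**Figure D5:**
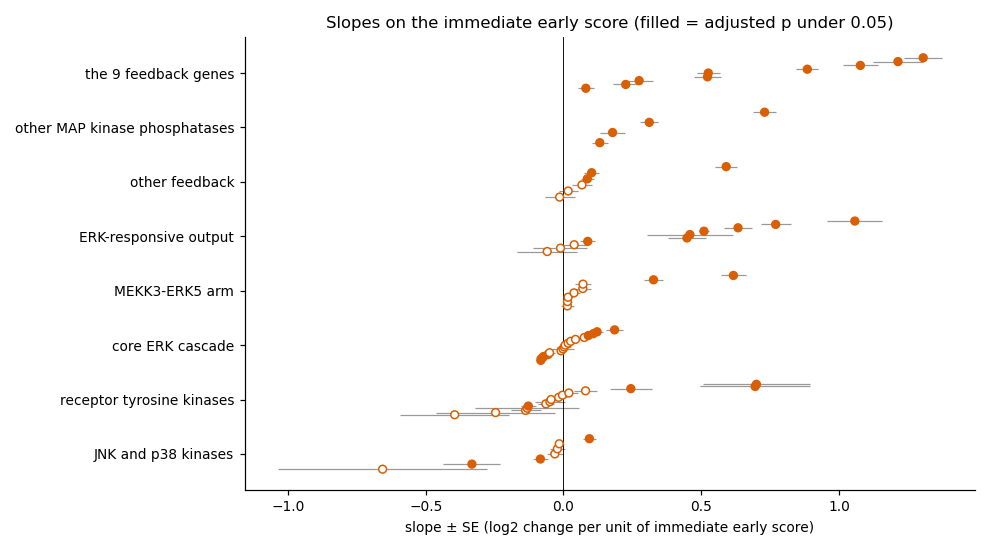
Slope on the immediate early score (log2 change per unit of score, with its SE) for the 9 feedback genes and for the genes of the other pathway lists, by list. The phosphatases Dusp5, Dusp2, Dusp4 and Dusp1 stand above 0.8, as does Fosl1 among the readouts of ERK activity. The 17 core cascade genes lie between -0.08 (Araf) and 0.19 (Sos1).

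The genes that moved most like each of the 9 across libraries were found by Pearson's r of log2 CPM deviations from the group means, over 18 libraries and 12156 genes. These values are a description, since all genes share the same libraries and the same few that stand apart. Dusp5 was most like Slc25a25 (r = 0.994), Egr3 (0.992) and Fzd5 (0.991). Dusp1 was most like Socs3, Epha2 and Nabp1 (0.988 to 0.990), Dusp2 like Fosb, Dusp5 and Csrnp1 (0.982 to 0.983), and Dusp4 like Lag3, Egr1 and Epha2 (0.973 to 0.985). Dusp6 was most like Btg2, Apold1 and Sgk1 (0.976 to 0.986) and Spry4 like Arid5a, Zfand2a and Tiparp (0.983 to 0.988). For Spry1 the nearest were Usp3, Tatdn2 and Akap12 (0.927 to 0.937). Spry2 was nearest to Fzd7, Homer1 and Arc (0.908 to 0.921), of which Homer1 and Arc are also known as activity genes of neurons. Egr1, Egr3, Fosb, Btg2 and Arc belong to the score. Spred1 was nearest to Tmem144, Sccpdh and Tmem62 (0.918 to 0.923), none of them an immediate early gene by this list.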

How the data were processed

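RNA of isolated mouse brain endothelial cells was sequenced from 18 libraries made with a stranded mRNA kit from 50 ng of RNA with an integrity number above 8.0, per the labels' protocols. Reads were aligned with HISAT2 to GRCm39 and edgeR was used, per the submitters' processing notes. The counting tool, its strand setting and the annotation are not given in the sources used here, so reads of overlapping antisense genes cannot be told apart. The deposited table of the authors holds whole-number read counts for 57010 genes, and the second deposited table holds RPKM with 1 decimal, which for 1453 highly expressed genes matched the counts divided by column total and 1 length per gene to within 0.445%. Symbols came from GENCODE M21 (GRCm38), which matched 91.3% of identifiers; the rest held 0.723% of the counts. Identical libraries were looked for, and 0 pairs were found.

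Tests used edgeR 4.0.16 in R 4.3.3: filterByExpr, TMM scaling, 1 model of the 4 groups with robust quasi-likelihood dispersion (legacy = FALSE), the F test, and Benjamini-Hochberg adjustment over the 17531 genes tested, at 0.05. Standard errors are the log2 difference divided by the square root of F, and log2 CPM used a prior count of 2. The score was then added as a covariate. It is made from the same libraries. Its group means were compared by exact permutation (two-sided). Alternatives, whose effect is given in the closing section, were RLE size factors, no filter or a filter of 1 CPM in 4 libraries, DESeq2 1.42.0, limma 3.58.1 on log2(RPKM + 0.1), only the groups compared, the replicate number as a block, covariates, and leaving out libraries.

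What a replicate number marks is not stated. For the same-numbered normoxia libraries 1, 2 and 4, the distances of each gene from its group mean were correlated across genes (r = 0.578, 0.293 and 0.848). The same number gave the highest r for 1 and 4 and not for 2. Both normoxia libraries numbered 4 held neuron markers, and both numbered 1 had a high immediate early score (10.2 and 10.3). What these correlations follow was not tested, so the normoxia pairing is an assumption. For the hypoxia libraries 2 to 5, r was 0.159, 0.0403, -0.183 and -0.339. Across oxygen, hypoxia KO 5 also matched its own number best (r = 0.402). The block within the normoxia pairs put 0 of the 9 genes past the threshold, as did the fit without it.

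Named are the 9 genes, Pdcd10 and Fos, up to 3 passing members per pathway list and comparison with the smallest adjusted p, and the 3 genes most like each of the 9, taken from genes with a symbol and a mean log2 CPM of 1 or more. The 9 genes and the lists were chosen with earlier results of these data known. A result that this rule would name is not reported here. Dusp16 was named after its values were seen. Spry3 was not matched. The scripts were tested on simulated counts. Promoter sequences are from RefSeq (GRCm38.p6) and were matched by symbol.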

Additional observations from a re-analysis of the deposited data

Results flagged for a closer look

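Dixon's test on log2 CPM set 7 of 36 gene-by-group sets of libraries apart, where chance flags about 1 in 20 such sets, and the 9 genes share the same libraries. In all 7 the library that stood apart was hypoxia KO 1, which lay below the other 4 hypoxia KO libraries: Dusp1 at 416 CPM, Dusp2 at 2.09, Dusp4 at 2.36, Dusp5 at 3.86, Dusp6 at 168, Spry1 at 30.7 and Spry4 at 18.9. The same library had an immediate early score of 6.98, against 10.03 to 10.3 in the other 4. Its summed pericyte markers (1091 CPM, against 1199 to 1949.7), T cell and lymphocyte markers (4.88 CPM, against 12.0 to 17.4) and red cell genes (2598 CPM, against 4539.6 to 8002) were the lowest of the group, while its summed smooth muscle markers (241 CPM, against 113 to 148) were the highest. Its summed oligodendrocyte markers were also the lowest of the group, by a wide gap (582.5 CPM, against 1811.6 to 4309.3). Its summed microglia and macrophage markers were the lowest too, and its summed neuron markers the highest. Its summed endothelial, astrocyte and fibroblast markers lay inside the range of the other 4. Its total count was 17.9 M, the lowest of all 18, and Pdcd10 was at 22.04 CPM, inside the range of the group. The part of these in the low values was not tested.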

How the results depend on the processing

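Over 2466 values of the 9 genes under other settings, 244 had another sign while past the threshold in neither fit. A value past the threshold took the opposite sign in 2 fits, both for Dusp4 between KO and flox in hypoxia with the score as covariate, at -0.73 (adjusted p = 0.00954) without the libraries with neuron markers and -0.64 (adjusted p = 0.0362) without normoxia flox 4, against 0.74 ± 0.96 from the groups alone; the cause was not tested.

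The count of the 9 genes past the threshold between KO and flox in hypoxia was 0, where 22.3% of all genes passed. It became 2 with DESeq2, where 22.5% of all genes passed, and 1 in a fit of only those groups (Dusp6, 1.27, adjusted p = 0.0404). With a replicate block over same-numbered libraries it became 2 (Dusp6 and Spry4), although the hypoxia numbers did not pair. The share of all genes passing in the fit of only those groups and in the block fit is not given here. Their counts therefore cannot be read as particular to the 9. The cause of these changes in the count was not tested. Leaving out 1 library gave 0 to 2 between KO and flox in hypoxia, 8 to 9 for the slopes and 0 to 0 in the other comparisons. The difference in score ranged from 1.31 to 2.48 in hypoxia and 0.187 to 1.46 in normoxia, and without hypoxia KO 1, which stood apart, it was 2.43 in hypoxia (unadjusted exact permutation p = 0.0286, the smallest these sizes allow). With the score as covariate the counts were 2 (KO and flox, normoxia), 1 (KO and flox, hypoxia), 3 (oxygen, flox) and 2 (oxygen, KO). They were 2, 2, 3 and 4 in this order when the libraries with neuron markers were also left out, where 27.8%, 31.5%, 7.85% and 6.05% of all genes passed, and 2, 2, 1 and 4 with the sex signal added, where 21.8%, 16.5%, 3.53% and 3.76% passed. With the score and a replicate block over all libraries, none of the 9 passed between KO and flox in either normoxia or hypoxia. In that fit 1 passed for oxygen in flox and 1 in KO (3.80% and 1.52% of all genes). With the score and the block within the assumed normoxia pairs, 1 passed (12.8%), in a fit with almost as many terms as libraries. The fits with the score and the sex signal, the score and a block, and the score without single libraries were chosen after the data were seen.

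Over all genes, the 2905, 3916, 492, 260 and 78 genes past the threshold (KO and flox in normoxia, in hypoxia, oxygen in flox, in KO, interaction) moved by over 1.5 times in some settings. Those were 808, 613 and 149 for the last 3 with DESeq2, 107 for oxygen in KO with only the groups compared, and 1793, 43 and 3 (KO and flox in normoxia, oxygen in KO, interaction) with the block over all libraries, where slopes passed for 3266 genes against 5428. Within the normoxia pairs 701 passed. With the score they were 963 for oxygen in flox and 550 in KO, or 659 in KO with the sex signal, and with the score and the block 9 for the interaction. Leaving out 1 library gave 53 to 523 for oxygen in KO and 28 to 98 for the interaction.

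Groups of 4 and 5 libraries, the swing of Dusp2, Dusp4 and Dusp5 inside each group, and low counts (11 to 31) in their lowest libraries limit what these comparisons can detect. Genotype and sex were uneven in hypoxia, and the score is itself a measurement of the same RNA.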

Other observations

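Genes outside the pathway lists showed the same libraries as high and low. Apold1, an endothelial immediate early gene and one of the 3 most like Dusp6, stood at 459 to 2220.3 CPM in hypoxia KO (median 2131) against 237 to 1023 CPM in hypoxia flox (median 295), a log2 difference of 1.96 (edgeR, adjusted p = 0.0925). In normoxia it stood at 210.1 to 1606 CPM in KO (median 1508) against 97.0 to 1146 CPM in flox (median 260). Socs3, the feedback inhibitor of JAK and STAT signalling and the gene most like Dusp1, stood at 63.8 to 515 CPM in hypoxia KO against 22.3 to 274 CPM in hypoxia flox, a log2 difference of 1.70 (edgeR, adjusted p = 0.220). Sgk1, a kinase induced by serum and glucocorticoids, stood at 184 to 1367 CPM in hypoxia KO against 211 to 733 CPM in hypoxia flox. Lag3, better known from T cells, was most like Dusp4, at 1.82 to 31.0 CPM in hypoxia KO against 1.31 to 39.9 CPM in hypoxia flox. Their slopes on the score were 0.97 for Socs3, 0.77 for Sgk1, 0.76 for Apold1 and 1.20 for Lag3 (adjusted p of 4.589e-07 or below in edgeR). These genes were picked for their likeness to the 9, and none passed the threshold between groups.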
